A study of Mus musculus with 6 samples.

Results

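AP-1 is a family of dimeric transcription factors built from Fos, Jun and related leucine zipper proteins, and its genes are among the immediate-early genes, which serum, growth factors and stress switch on within minutes and without new protein synthesis. The 10 genes described here are Fos, Fosb and Fosl1, Jun, Junb and Jund, the related Atf3, and the immediate-early genes Egr1, Ier2 and Ier3. They were taken by symbol, with every probe set paired with them alone, which gave 13 of 45037 probe sets and 10 of 18193 genes, and all were measured. Fos proteins bind DNA only as dimers with a Jun or another leucine zipper partner, whereas Jun can also pair with itself. Most members are switched off again quickly, and which Fos and Jun proteins are present sets which dimers can form.

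Juxtaglomerular (JG) cells, the renin-secreting cells of the afferent arteriole of the kidney, were sorted as YFP+ cells from adult C57BL6 Ren1c YFP mice (3 samples). Renal mesenchymal stromal cells (MSC, 3 samples) were taken from the same strain and genotype by a sort for CD44 and were grown to confluence in DMEM with 10% FBS, that is, in serum. The labels repeat that medium for the JG samples, so whether JG cells were cultured is not known, and cell type and culture cannot be told apart. Total RNA was read on 6 single-colour Affymetrix arrays. The labels do not tell whether replicates are different mice or dishes, so p-values measure the spread between these samples, which may be technical.

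Array medians ran from 27.4 to 36.5 in JG samples and from 27.3 to 34.1 in MSC samples, and no detection calls were used, so a low value is given as an intensity and not as absence. The arrays correlated at 0.807 to 0.887 within the JG group, at 0.971 to 0.975 within the MSC group and at 0.687 to 0.814 between groups. Of the JG arrays, sample 1 was closest to the MSC arrays (0.806 to 0.814), then sample 3 (0.769 to 0.782) and sample 2 (0.687 to 0.701). JG samples carried markers of other kidney cells. Over all genes, 7.70% were called higher in JG and 7.63% lower, and these shares stand beside the marker counts that follow. All 10 markers of the proximal tubule passed the test as higher in JG, with Kap and Slc34a1 brightest, and the summed list stood at 28837 to 36725 in JG and 348 to 628 in MSC, where 6 markers lay below 16 in every sample. Of 10 loop and distal tubule markers 9 were called higher, with the highest JG means for Umod and Wnk1 (Wnk1 not called), and sums of 13767 to 23008 in JG against 1459 to 2383 in MSC. Endothelial markers were called higher for 6 of 10 (Tek and Esam brightest in JG), with sums of 1033 to 1145 against 140 to 154. Macrophage markers were called higher for 4 of 10 (Laptm5 and Csf1r brightest), with sums of 1713 to 4144 against 151 to 685. Of 10 measured renin cell markers 4 were called higher in JG, with Rgs5 and Crip1 brightest, and Ren1 itself was not analysed here. That list summed to 4020 to 4835 in JG and to 307 to 564 in MSC. Gja4 lay lower in every JG sample than in any MSC sample and was not called, and Gja5, Notch3 and Cspg4 overlapped. Fibroblast and stromal markers were called higher for 1 of 10 and lower for 2, with Col1a1 and Col3a1 brightest in JG and not called. Their sums were 30430, 10400 and 14786 in JG samples 1 to 3, against 21921 to 29386 in MSC. The part of these cells in the values below was not tested, and in such mixed samples fewer cells of a type and less RNA per cell cannot be told apart.

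Fosb and Atf3 were called higher in JG, Fosl1 and Ier3 were called lower in JG, and the other 6 members passed no test. Differences are JG minus MSC in log2 units after 16 was added to each intensity, with a standard error, and adjusted p-values are from limma over all 18193 genes, each read by its brightest probe set. The 2 members called higher stand beside 7.70% of all genes, and the 2 called lower beside 7.63%. Taken in either direction, 4 of 10 members were called, against 15.3% of all genes. The median difference of the 10 members was 0.32 and that of all genes 0.07. The JG values lay above or below all MSC values for 5 of 10 members, against 38.7% of all genes. The members were chosen with earlier results of these data known, so these shares and those further below are no independent evidence.

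**Figure D1:**
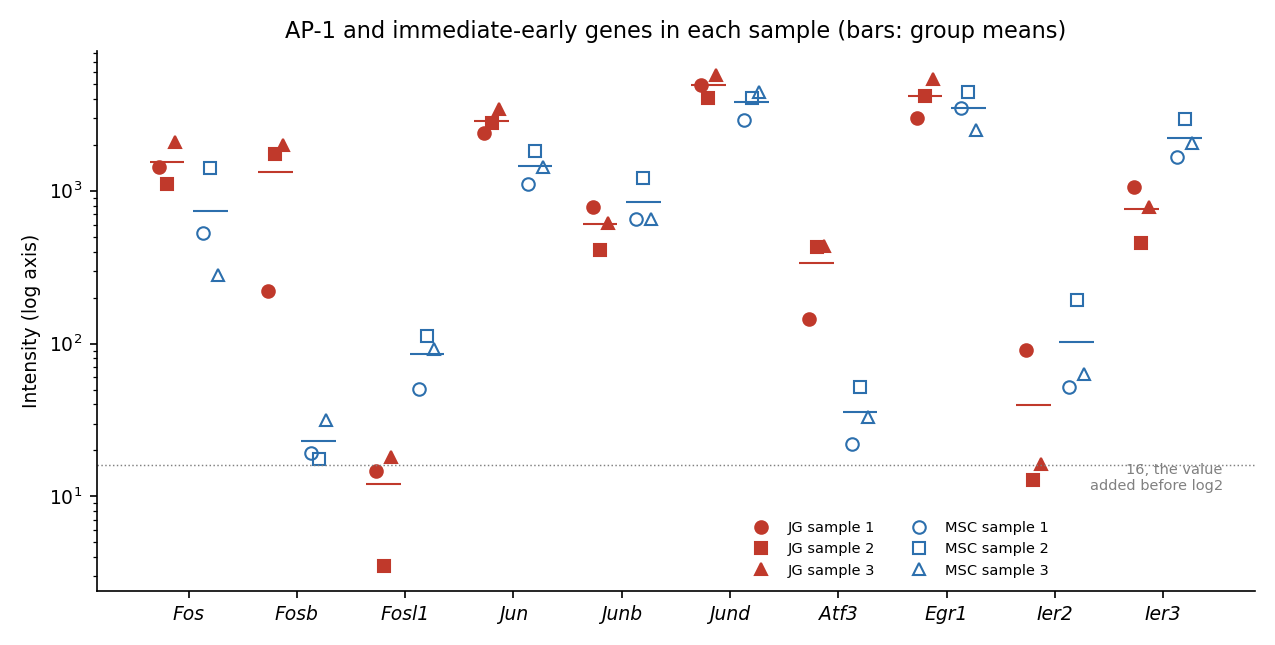
Intensity of each of the 10 genes (brightest probe set) in the 3 JG samples (filled red) and the 3 MSC samples (open blue), on a log axis, with bars for group means and a dotted line at 16. Fosb, Atf3 and Jun lie higher in all JG samples, with Jun not called. Fosl1, near the dotted line in JG, and Ier3 lie lower, and Jund, Egr1, Junb, Fos and Ier2 overlap.

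The bases before the start sites of Fosb and Atf3, the members called higher, and of Fos, the paralogue whose groups overlapped, are shown to let the 3 control regions be compared. They are RefSeq sequences of GRCm38.p6, read 5′ to 3′ on the strand of the gene, and bases inside the annotated gene were left out. Capitals mark matches to TGACGT, the core of the cyclic AMP response element (Fos, Atf3; read as ACGTCA on the other strand), or to the TATA box letters TATAAA (Fos).
Fosb, chr7:19310119-19310295, minus strand: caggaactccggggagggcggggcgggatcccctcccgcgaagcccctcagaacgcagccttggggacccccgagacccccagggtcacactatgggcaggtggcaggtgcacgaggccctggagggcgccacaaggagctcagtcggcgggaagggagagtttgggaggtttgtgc
Atf3, chr1:191183334-191183583, minus strand: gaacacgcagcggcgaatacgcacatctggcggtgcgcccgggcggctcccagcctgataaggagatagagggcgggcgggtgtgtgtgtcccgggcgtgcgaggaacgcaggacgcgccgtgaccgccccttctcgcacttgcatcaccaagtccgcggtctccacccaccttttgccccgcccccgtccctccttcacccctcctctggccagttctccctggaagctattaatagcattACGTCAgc
Fos, chr12:85473640-85473889, plus strand: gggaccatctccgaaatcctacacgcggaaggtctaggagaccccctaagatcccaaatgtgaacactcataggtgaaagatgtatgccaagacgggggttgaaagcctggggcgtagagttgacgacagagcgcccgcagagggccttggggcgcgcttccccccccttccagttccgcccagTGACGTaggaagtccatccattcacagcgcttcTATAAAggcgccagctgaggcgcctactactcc

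Windows of 250 bases before the start were searched on both strands for 7 members (Atf3, Fos, Fosb, Ier3, Jun, Junb and Jund) and for all 32851 promoters of the table. The core TGACGT was found in 2 of the 7, Fos and Atf3, and in 6.47% of all windows. The full element TGACGTCA, which contains that core, was found in 0 of the 7 and in 1.55% of all windows. The AP-1 site TGANTCA was found in 0 of the 7 and in 6.75% of all, and the CArG box bound by serum response factor in 0 of the 7 and in 1.47%. The Egr site GCGNGGGCG was found in Fosb alone and in 4.70% of all windows. The window of Fosb reached into the annotated gene, and the match lies there, among the bases left out of the printed sequence. TATAAA was found in Fos alone and in 12.4% of all windows. These are matches of letters in short windows and nothing more. Egr1, Fosl1 and Ier2 were not searched, nor were bases farther than 250 before a start. A count of 0 therefore does not mean that a gene lacks the site.

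Within the Fos family, Fosb and Fosl1 differed between the groups in opposite directions. Fosb, a Fos protein that also has a long-lived shorter form, had intensities of 219.5, 1743 and 1999.9 in JG samples 1 to 3, against 19.4, 17.7 and 31.7 in MSC samples 1 to 3. Every JG sample lay above every MSC sample, and JG sample 1 was far below the other JG samples. The difference was 4.62 ± 0.82 (adjusted p = 0.0148), a size that the added 16 understates because all MSC values lie near it. Fosl1, which encodes Fra-1, a Fos protein without the strong activation domain of Fos, had 14.6, 3.5 and 18.2 in JG samples, against 50.5, 113 and 92.7 in MSC samples. It was dim throughout, with JG values near or below 16, and the groups did not overlap. The difference was -1.84 ± 0.36 (adjusted p = 0.0203), and with the small JG values its size depends on the number added before the log.

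Fos itself passed no test. Its intensities were 1434, 1108 and 2071 in JG samples and 529, 1403 and 281 in MSC samples. MSC sample 2 lay inside the JG range, while the other MSC samples were below all JG samples. The difference was 1.30 ± 0.59 (adjusted p = 0.190), and without MSC sample 2 it was 1.90 and again not called (adjusted p = 0.0737).

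In the Jun family no member was called. Jun, the partner that JNK phosphorylates, had 2382, 2794 and 3443 in JG samples, against 1110.4, 1828 and 1427 in MSC samples by its brighter probe set. The groups did not overlap, and the difference was 0.99 ± 0.29 (adjusted p = 0.0663). A second probe set of Jun, made for the same target, read 438, 1989 and 2139.8 in JG samples and 1019, 747 and 596 in MSC samples. In that set JG sample 1 fell below every MSC sample, and the difference was 0.67 ± 0.64 (adjusted p = 0.547 over all probe sets). Without JG sample 1 that set was called, at 1.41 (adjusted p = 0.0269).

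Junb, a Jun protein that can oppose Jun at some genes, had 783, 412 and 613 in JG samples and 657, 1207 and 653 in MSC samples (-0.45 ± 0.37, adjusted p = 0.445). Its highest value was in MSC sample 2, and the groups overlapped. Jund, the Jun protein that many resting cells keep at a steady level, had 4949.9, 4042 and 5692 in JG samples and 2882, 4067 and 4433 in MSC samples (0.38 ± 0.28, adjusted p = 0.396). Its brighter set was bright on every array. The dimmer set of Jund read 50.3, 58.3 and 12.2 in JG samples and 6.64, 9.54 and 13.9 in MSC samples, and was not called either (adjusted p = 0.184 over all probe sets).

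Atf3, a leucine zipper factor induced by stress that often represses its targets, had 145, 429.8 and 435 in JG samples, against 22.1, 52.2 and 33.1 in MSC samples. Again all JG values lay above all MSC values and JG sample 1 was the lowest of its group. The difference was 2.66 ± 0.48 (adjusted p = 0.0151).

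The immediate-early genes outside the leucine zipper families did not move as 1 group. Egr1, a zinc finger factor induced by serum, was bright in both groups, with 2999, 4159.6 and 5349 in JG samples and 3478, 4397 and 2494 in MSC samples. The groups overlapped (0.27 ± 0.33, adjusted p = 0.624). Ier3, a stress-induced gene linked to cell survival, had 1057, 452 and 777 in JG samples, against 1659.8, 2941 and 2045 in MSC samples. All JG values were below all MSC values (-1.56 ± 0.39, adjusted p = 0.0439). Ier2, which encodes a small nuclear protein, had 90.5, 12.7 and 16.4 in JG samples and 52.1, 193 and 62.9 in MSC samples. JG sample 1 lay inside the MSC range and the other JG samples lay below it (-1.17 ± 0.65, adjusted p = 0.272).

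**Figure D2:**
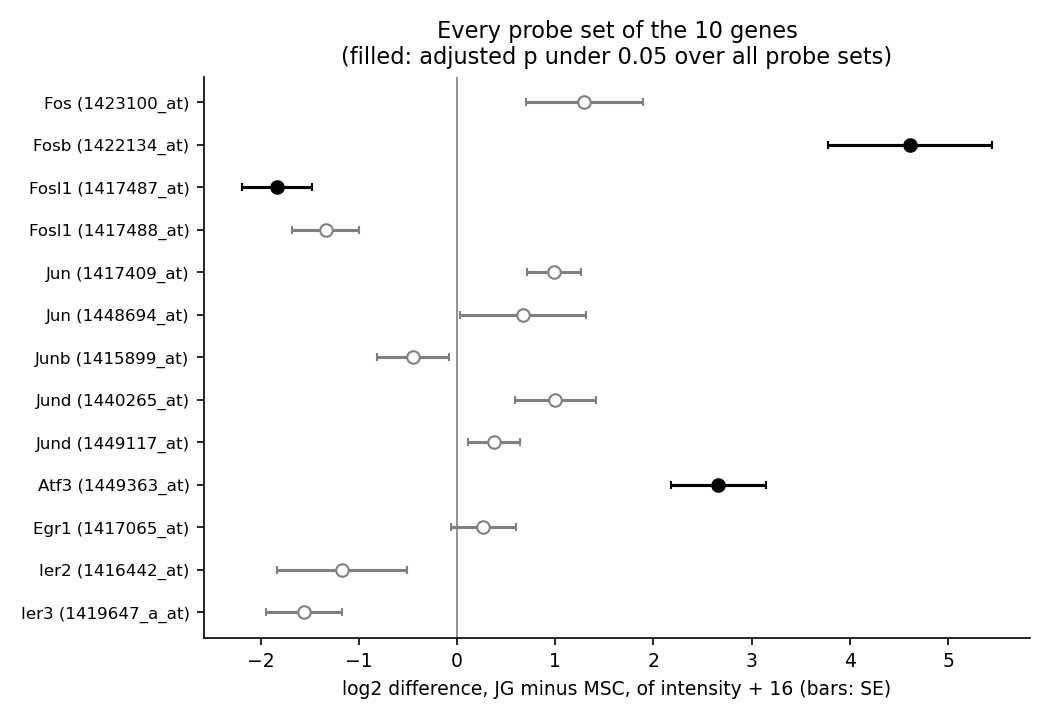
Difference JG minus MSC, in log2 units of intensity plus 16, for each of the 13 probe sets, with standard errors as bars; filled points have an adjusted p under 0.05 over all 45037 probe sets. Fosb at 4.62, Atf3 at 2.66 and 1 of the Fosl1 sets at -1.84 are filled.

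When each probe set was tested on its own, over all 45037, 3 of the 13 were called, against 9.80% of all probe sets. They were those of Fosb (adjusted p = 0.0231) and Atf3 (0.0227) and the brighter set of Fosl1 (0.0287). The dimmer set of Fosl1 read 7.99, 12.3 and 11.8 in JG samples and 26.2, 63.9 and 74.8 in MSC samples, again without overlap (-1.34 ± 0.34, adjusted p = 0.0608). The single set of Ier3 had an adjusted p of 0.0587 in this test.

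The 4 calls rested on few samples. Fosb lost its call without MSC sample 1, 2 or 3 (adjusted p = 0.0657, 0.0694 and 0.0592) and had 0.000346 without JG sample 1. Atf3 lost it without MSC sample 1 (0.0688), MSC sample 3 (0.0689) or JG sample 3 (0.0506). Fosl1 lost it without MSC sample 2 (0.0881) or MSC sample 3 (0.0921). Ier3 kept its call only without JG sample 1 (0.0199), and reached 0.152 without MSC sample 2. Jun was called without JG sample 1 (0.0421) and in none of the other fits with 1 sample left out. Over these fits the differences ranged from 4.07 to 5.61 for Fosb, from 2.41 to 3.15 for Atf3, from -2.11 to -1.59 for Fosl1, from -1.83 to -1.23 for Ier3 and from 0.81 to 1.16 for Jun. No member changed sign. The number of members called was 1, 1 and 0 without MSC samples 1, 2 and 3, and 5, 3 and 2 without JG samples 1, 2 and 3. In the same order of fits, 1240, 1152 and 1139 of all 18193 genes were called, and 5194, 2826 and 1936. With all samples it was 2790 genes, so the changes in these counts are not read as a result about the members.

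**Figure D3:**
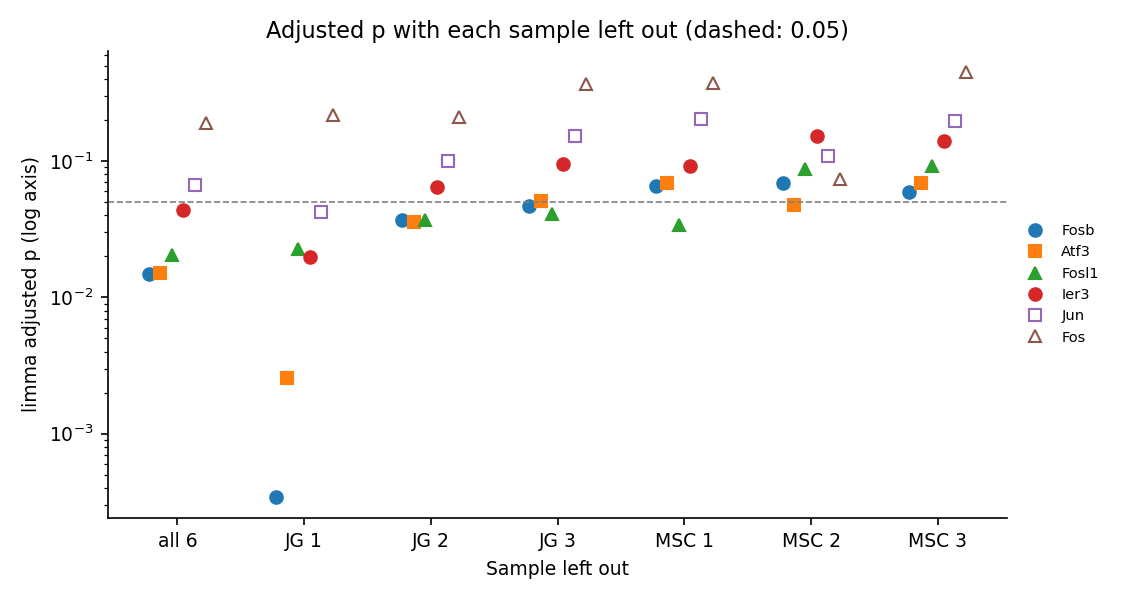
limma adjusted p of 6 members with all samples and with each sample left out, on a log axis, with the threshold of 0.05 dashed; filled points are the 4 members called with all samples. The 4 filled genes lie below the line with all 6 samples and without JG sample 1, where Fosb reached 0.000346, and at least 3 of them lie above it without any 1 MSC sample.

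Within a group many members shared their highest sample. MSC sample 2 held the highest MSC value of 8 of 10 members, all but Fosb and Jund, against 32.2% of all genes. Among the pathway lists, the same sample was the highest MSC sample for 19 of 34 other immediate-early genes, 12 of 16 inhibitors of the ERK and JNK kinases and 6 of 11 other dimer partners. It was the highest for 7 of 21 AP-1 target genes, 4 of 12 heat shock genes and 2 of 20 genes of the MAP kinases and serum response factor. MSC sample 2 also had the highest MSC value for 8 of 10 macrophage markers, whose sum was 685 there and 151 and 156 in the other MSC samples, and the part of such cells in the members' values was not tested. JG sample 3 held the highest JG value of 7 of 10 members, against 31.0% of all genes. Its macrophage sum was 4144, against 1713 in JG sample 1 and 2968 in JG sample 2. Much of that sum was Csf1r, with 1958 there against 343 and 378 in JG samples 1 and 2. Csf1r, Laptm5, C1qc and Adgre1 were highest in JG sample 3. C1qb and Ptprc were highest in JG sample 2, and Tyrobp, C1qa, Cd68 and Lyz2 in JG sample 1, so the markers shared no highest sample. JG sample 1 was the lowest JG sample for Fosb, Jun, Atf3 and Egr1, 4 of 10 against 36.7% of all genes. It was the highest for Junb, Ier2 and Ier3, 3 of 10 against 36.9%. JG sample 2 was the lowest for the other 6 members, against 40.6% of all genes. These counts for JG samples 1 and 2 are not read as a result about the members.

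The genes most like 3 of the members across the 6 samples were found by Pearson correlation of log2 values among 9466 genes, as a description in which the points share the 2 groups. Fos was closest to Fam120a (0.961), Plce1 (0.954) and Tyrobp (0.952). Tyrobp, an adaptor of myeloid receptors, read 230, 101 and 160.4 in JG samples and 11.7, 119 and 3.1 in MSC samples, with its MSC maximum in MSC sample 2, as for Fos. Fosl1 was closest to Ppp4c, Pdrg1 and Bok (0.991 to 0.995), whose JG values all lay below their MSC values. Junb was closest to Gtpbp1 (0.983), Sntb2 (0.973) and Phlda1 (0.964), all of them highest in MSC sample 2.

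Of 11 measured other partners that can enter AP-1 or related dimers, 3 were called lower in JG and 1 higher, beside 7.63% and 7.70% of all genes, with a median difference of -0.16. The 3 calls lower in JG became 0 without any 1 MSC sample or JG sample 3, so the counts give the list no direction. Over all genes the calls lower in JG, 1389 with all samples, were 521, 433 and 411 without MSC samples 1, 2 and 3. They were 950 without JG sample 3. Maff, a small Maf protein without an activation domain, had 54.3, 314 and 62.4 in JG samples against 839, 1245 and 1139 in MSC samples (-3.14 ± 0.62, adjusted p = 0.0204). Fosl2, which encodes the Fra-2 paralogue of Fosl1, had 855, 237 and 492 in JG samples against 2495, 2947 and 2514 in MSC samples (-2.46 ± 0.46, adjusted p = 0.0172). So both Fos-like genes, Fosl1 and Fosl2, were called lower in JG, and Fosb higher. Atf7, a partner of Jun, was called lower (-2.28 ± 0.59, adjusted p = 0.0487). Maf, a large Maf factor, was called higher, with 3753, 3054 and 4302 in JG samples against 2031, 1529 and 1148 in MSC samples (1.25 ± 0.30, adjusted p = 0.0376). All of these calls were lost without any 1 MSC sample or JG sample 3, where adjusted p reached 0.139 for Maf, 0.0890 for Maff, 0.0792 for Fosl2 and 0.161 for Atf7, and Atf7 lost its call without JG sample 2 too (0.0949).

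Of 34 other immediate-early genes measured, Klf2 was called higher in JG and Plk2 lower, 2 in all beside 15.3% of all genes, with a median of -0.34. Klf2, a Krüppel-like factor, had 204, 117 and 114 in JG samples against 61.4, 39.1 and 54.5 in MSC samples (1.22 ± 0.30, adjusted p = 0.0431). Plk2, a polo-like kinase gene, had 324, 10.7 and 62.3 in JG samples against 1619, 1856 and 1538 in MSC samples (-4.24 ± 0.87, adjusted p = 0.0235). Both calls were lost without any 1 MSC sample or, for Klf2 (0.0677) and Plk2 (0.0726), JG sample 3, and adjusted p reached 0.156 for Klf2 and 0.0945 for Plk2. Without JG sample 1 the list had 2 genes higher and 4 lower. Over all genes that fit had 2551 higher and 2643 lower, against 1401 and 1389 with all samples. The rise is therefore not read as a result about the list. The JG values lay above all MSC values for 2 genes of this list and below all of them for 8, shares that stand beside 20.2% and 18.5% of all genes.

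Of 20 measured genes of the MAP kinases and of serum response factor, which feed into AP-1, Map3k1 was called higher in JG and Elk3 lower (median -0.52). These 2 of 20, and 1 of 16 feedback inhibitors, stand beside 15.3% of all genes and are not read as a result about either list. Map3k1, a kinase upstream of JNK, had 173, 124 and 653 in JG samples against 53.8, 3 and 22.3 in MSC samples (2.81 ± 0.72, adjusted p = 0.0473). That call was lost without any 1 MSC sample or JG sample 3, where adjusted p reached 0.152. Elk3, a ternary complex factor that represses until it is phosphorylated, had 173, 255 and 332 in JG samples against 969, 995 and 1029.6 in MSC samples (-1.96 ± 0.29, adjusted p = 0.00733). Elk3 stayed past the threshold whichever single sample was dropped. The feedback inhibitor called was Spry1, an inhibitor of receptor tyrosine kinase signalling, with 23.1, 42.0 and 89.0 in JG samples against 264, 358 and 211 in MSC samples (-2.22 ± 0.42, adjusted p = 0.0181). Its call was lost without any 1 MSC sample (adjusted p up to 0.0824), and the median of that list was -0.65.

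Of 21 measured genes that AP-1 is known to regulate, 10 were called lower in JG and 2 higher. Those counts stand beside 7.63% and 7.70% of all genes, and the list median was -1.58. The list was chosen with earlier results of these samples known, so its direction is no independent evidence, and Cd44, among the 10, was the antigen of the MSC sort. Timp1, an inhibitor of matrix proteases, had 14.3, 31.4 and 25.2 in JG samples against 1039.7, 1389 and 1612 in MSC samples (-5.11 ± 0.29, adjusted p = 0.000185). Hmga2, a chromatin protein of growing mesenchyme, had 39.1, 5.88 and 23.7 in JG samples against 984, 734 and 678 in MSC samples (-4.47 ± 0.39, adjusted p = 0.000973). Ccl2, a monocyte chemokine, was lower by the next largest amount (-3.41 ± 0.59, adjusted p = 0.0135).

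Plau, the urokinase gene, went the other way, with 3661, 1715 and 2500.3 in JG samples against 405, 399.7 and 337 in MSC samples (2.67 ± 0.33, adjusted p = 0.00363). Ccnd1, the cyclin D1 gene, was higher in JG too (1.56 ± 0.35, adjusted p = 0.0312). Timp1, Hmga2 and Plau stayed past the threshold whichever single sample was dropped. Ccl2 lost its call without MSC sample 2 (0.0516), and Ccnd1 lost it without MSC sample 1 (0.118), MSC sample 2 (0.122) or JG sample 3 (0.0825). The 10 calls lower in JG became 5 without MSC sample 2 and 6 without JG sample 3. Over all genes the calls lower in JG fell in these fits too, from 1389 to 433 and to 950.

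Of 12 measured heat shock genes, another stress-induced group, 1 was called higher in JG and 2 lower. Those counts stand beside 7.70% and 7.63% of all genes and are not read as a result about the list. Hspa1a was called higher in JG, with 239, 137 and 107 in JG samples against 36.9, 37.3 and 50.7 in MSC samples (1.56 ± 0.33, adjusted p = 0.0268). Hspb1, a small heat shock protein gene, was called lower, with 369.9, 83.1 and 138 in JG samples against 1341, 2608 and 2029 in MSC samples (-3.42 ± 0.54, adjusted p = 0.0101). Dnajb4, a co-chaperone gene, was called lower (-2.16 ± 0.35, adjusted p = 0.0107). The list median was -0.18. Hspa1a and Dnajb4 lost their call without any 1 MSC sample (adjusted p up to 0.109 and 0.0563), and Hspb1 without MSC sample 2 (0.0527) or MSC sample 3 (0.0521).

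**Figure D4:**
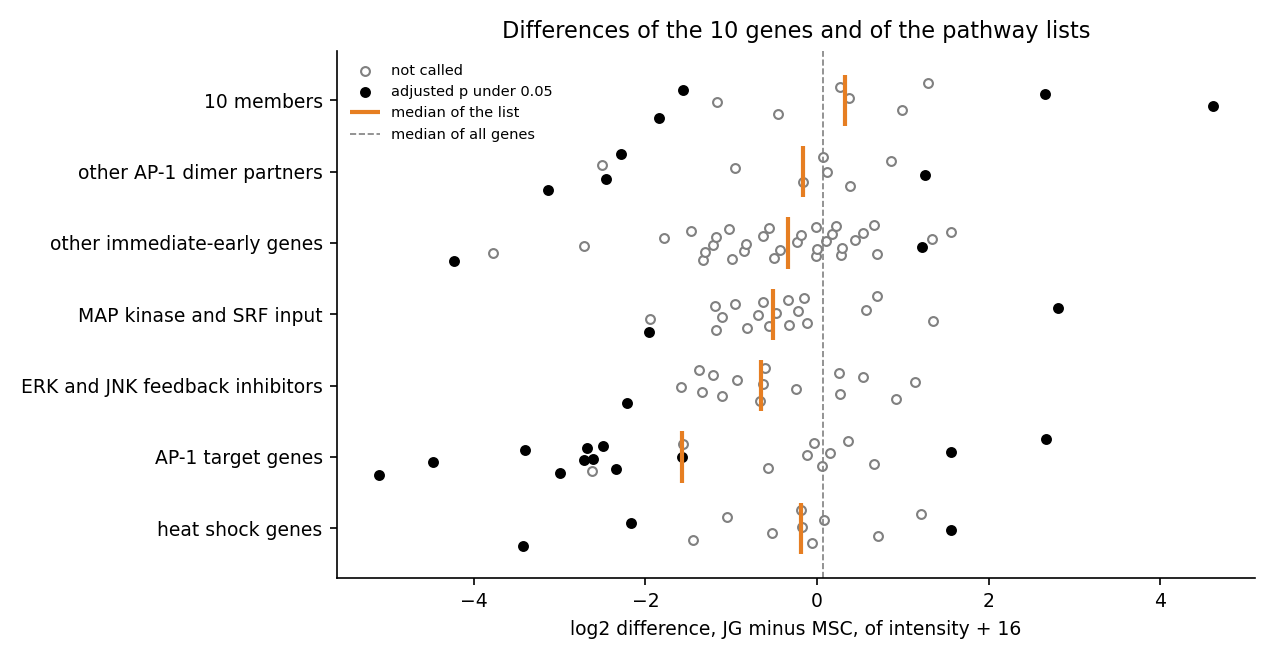
Differences JG minus MSC, in log2 units of intensity plus 16, for the 10 members and for each gene of the 6 pathway lists (1 point a gene, filled where the adjusted p is under 0.05), with list medians in orange and the median of all genes, 0.07, dashed. The medians of the 6 lists lie at or below -0.16, and that of the AP-1 target genes is lowest at -1.58.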

How the data were processed

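For each array the authors deposited probe set intensities on a linear scale. Per the labels' protocols, biotin-labelled cRNA was made from 100 ng of total RNA; the sources used here do not state how probes were summarised, corrected or scaled. The platform annotation gave 1 gene for 34945 of the 45037 probe sets, several for 932 and none for 9160; the gene IDs of 34741 were found in a RefSeq table of GRCm38.p6.

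The number 16 was added to the deposited intensities before log2, nothing else was normalized or filtered, and each gene was read by its brightest probe set. The difference JG minus MSC came from limma 3.58.1 under R 4.3.3 (lmFit, then eBayes), over the 6 arrays together, two-sided, with Benjamini-Hochberg adjustment and a threshold of 0.05; the fit was tested on simulated data. An exact permutation test of 3 against 3 cannot go below 0.1 and was not used. The number of arrays, 3 in each group, limits the precision. The text names all members, up to 3 called genes per direction in each pathway list whose higher mean exceeds the median gene, up to 2 per marker list with the highest JG mean, and 3 genes closest to Fos, Fosl1 and Junb among those with a group mean of at least 100. Members and lists were chosen with earlier results of these data known. Alternatives changed the scaling, the filter, the choice of probe set, the added number, the fit's weights or block, or left out 1 sample. Figures were drawn with matplotlib 3.10.9.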

Additional observations from a re-analysis of the deposited data

How the results depend on the processing

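Across 17 alternatives no member and none of the 17 named genes of the pathway lists changed sign, and Fosb and Atf3 kept their call in all 11 that did not leave out a sample. Members called, 4 in all, ranged from 0 to 5 with 1 sample left out (higher in JG, 2, from 0 to 3; lower, 2, from 0 to 2); the 3 called probe sets ranged from 0 to 6. Members called lower were 1 with genes under the median left out, which removes Fosl1, and 1 with 1 or 64 added in place of 16, where Ier3 had adjusted p = 0.0741 and 0.0513. The difference of Fosl1 was -2.89 with 1 and -0.95 with 64 added. That of Atf3, whose MSC values were 22.1, 52.2 and 33.1, was 3.12 with 1 and 1.91 with 64 added. That of Fosb was 5.31 with 1 and 3.56 with 64 added. With the replicate number as a block, although same-numbered samples did not deviate together (correlations -0.197, -0.00927 and -0.00753), 2 members were called, 0 of them lower, with 1 probe set, 1613 of all genes (903 higher, 710 lower) and 15 genes of the pathway lists (1 higher). Array weights gave 6 probe sets, 6177 genes (3208 and 2969) and 42 pathway genes (12 and 30). With no block or weights, 2790 genes (1401 and 1389) and 24 pathway genes (6 and 18) were called, and with 1 added 3 pathway genes were higher. With 1 sample left out these counts ranged from 1139 to 5194 (719 to 2551 and 411 to 2643) and from 7 to 38 (1 to 10 and 6 to 28). Klf2 was called in 4 of the 11 other alternatives, Atf7 in 7, Maf and Map3k1 in 8 each. Jun was called with array weights (adjusted p = 0.0211) and in no other of the 11. The JG values of Fosl1, the MSC values of Fosb and the values of Ier2 in JG samples 2 and 3 lay near or below 16, where the size of a difference depends on the number added.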
